A study of Mus musculus with 4 samples.

Results

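The cytosolic ribosomal protein genes were examined for CTCF binding at their promoters in the mouse heart. Members were the protein-coding genes of GENCODE M21 whose symbol is Rpl or Rps followed by a digit, or Rplp, without pseudogenes and without the Rps6k kinases. This rule took 85 of the 21938 protein-coding genes on the autosomes, X and Y. It took 46 genes of the large subunit, 30 of the small subunit, 8 paralogs (Rpl3l, Rpl7l1, Rpl10l, Rpl22l1, Rpl36al, Rpl39l, Rps27l and Rps27rt) and Rps19bp1, whose product is no ribosomal protein. A promoter peak was a summit of the authors' conservative list, 1 of the 2 thresholded lists made from both pools, within 1 kb of any annotated transcription start of the gene. Where a gene had several, its strongest was used.

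The data were CTCF ChIP-seq, in which DNA bound by the factor is recovered with an antibody and sequenced. The chromatin came from frozen heart tissue of adult female B6CASTF1/J mice, aged 2 months, which are first-generation hybrids of C57BL/6J and CAST/EiJ. Pool G (biological replicate 2) and pool H (biological replicate 1) were each made from 2 heart biosamples and sequenced as 2 technical libraries. All 4 libraries belong to this 1 group, so there was no other condition to compare, and peak lists do not allow the tissue label to be checked against marker transcripts. The heart holds cardiomyocytes, fibroblasts, endothelium and other cells, and the cell type a peak came from cannot be told from tissue. Read depth is unknown from the peak lists. The signal of a peak is the authors' score without a unit, and levels were compared only within a list, while the values of the pools stand side by side as a description.

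Ribosomal proteins are assembled with ribosomal RNA into the large and small subunits in roughly equal numbers, and their genes are transcribed at high levels in nearly every cell. Their promoters typically start transcription at a cytosine inside a short run of pyrimidines, and many hold sites for ETS family factors or YY1. CTCF is a zinc finger protein that binds a long, directional motif, halts cohesin and so helps to set the ends of chromatin loops, and it also occupies many promoters next to their starts.

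The sequences under the members' peaks are shown first, because strong member peaks were found over very different matches to the motif. Each line gives 24 bases of the GRCm38.p6 (mm10) reference, 5′ to 3′ on the strand named, with the best match to the 12-base CTCF core in capitals. The reference is C57BL/6J, so differences of the CAST/EiJ copy are not seen. The first set holds the strongest peaks whose best match has 2 mismatches to the core, and the second holds peaks with a core of at most 1 mismatch, namely the 3 strongest, the exact core of Rps4x, and those of the anemia genes Rps19 and Rpl5.
Rpl26, chr11:68901459-68901482, plus strand: tccgagCCGCTAGATGTCgctaaa
Rps3a1, chr3:86142728-86142751, minus strand: ctcccgACACACGAGGGCgctgtc
Rps15, chr10:80292347-80292370, plus strand: ctccggACAGCGGGGGGCaatggc
Rpl11, chr4:136053476-136053499, minus strand: gacagtCCACTAGAGGTGgcagcg
Rpl10a, chr17:28328443-28328466, plus strand: gtgcagCCGCGTGGTGGCgccccc
Rpl36, chr17:56613322-56613345, plus strand: ctccggCCACCAGAGGTCgcccgc
Rplp0, chr5:115559284-115559307, plus strand: tccgacCCAGCAGAGGGCagcagg
Rps24, chr14:24487122-24487145, minus strand: aaggagCCGCTAGATGGCgatcta
Rps4x, chrX:102189430-102189453, minus strand: ctcccaCCAGCAGATGGCaagaga
Rps19, chr7:24883979-24884002, plus strand: actccgGCACTAGATGGCggagct
Rpl5, chr5:107900459-107900482, plus strand: ctcctaCCGGCAGGGGGCgatagc
The capitals of Rplp0 and Rps4x match the core without a mismatch, and those of Rpl36, Rps24, Rps19 and Rpl5 have 1.

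A further pair of member peaks sit on near copies of a single word, printed here because they are weak peaks in spite of a core.
Rpl13, chr8:123101440-123101463, minus strand: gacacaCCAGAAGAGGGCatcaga
Rpl29, chr9:106428756-106428779, minus strand: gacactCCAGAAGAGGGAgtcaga
The capitals of Rpl13 match the core exactly, and those of Rpl29 have 1 mismatch. Both lie in sequence that the assembly marks as repeats by soft-masking. The summits of Rpl15 and of the strong peaks at Rplp0 and Rpl24 were soft-masked too.

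Of the 85 members, 44 (51.8%, exact 95% binomial interval 40.7 to 62.7%) had a promoter peak, against a background of 34.6% of all protein-coding genes. The intervals cover counting error over genes only. Counted from the start of the principal transcript alone, 41 members (48.2%) had one, against 27.2% of all genes. Ribosomal protein promoters are mostly CpG-rich, and that background was higher: 51.4% of the 9651 protein-coding genes with a CpG-rich principal promoter had a peak. Among the 64 members with such a promoter the share was 51.6% (33 genes, 38.7 to 64.2%), so these members lay at the level of CpG-rich genes. The share of all 85 members was nearly the same, while that of all genes was 34.6%. The few members without such a promoter thus stood above other genes without one. CpG-rich means at least 50% GC and an observed over expected CpG ratio of at least 0.6 in the 300 bases from 250 before to 50 after the start. The members' promoters had a median GC content of 55.7% and a median CpG ratio of 0.838, where all genes had 56.0% and 0.557.

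The number of annotated starts also moved with the share. Members had a median of 6 annotated starts and all genes 3. With 1 start, 2 of 5 members (40.0%, Rps3a1 and Rpl36) and 15.5% of all genes had a peak. With 2 to 4 starts, 15 of 28 members (53.6%) and 28.8% of all genes had one. With 5 to 8 starts the values were 17 of 38 members (44.7%) and 49.2% of all genes, and with 9 or more they were 10 of 14 members (71.4%) and 61.7%. Members thus stood above all genes in 3 of these classes and not with 5 to 8 starts, with few members in each. From the principal start alone, the share of all genes still went from 15.5% with 1 start to 40.4% with 9 or more.

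Both subunits were represented. Of the large-subunit genes 27 of 46 (58.7%, 43.2 to 73.0%) had a promoter peak, and of the small-subunit genes 16 of 30 (53.3%, 34.3 to 71.7%), intervals that overlap widely. The paralogs and Rps19bp1 had 1 peak in 9 genes (11.1%, 0.281 to 48.2%), at Rpl7l1. The heart and muscle form Rpl3l, and Rpl10l, Rpl39l and Rps27rt, had none. Rpsa, Fau and Rack1, which also encode ribosomal proteins but fall outside the symbol rule, had none either. Shares in related lists were 42.3% of 78 mitochondrial ribosomal protein genes, 45.6% of 68 translation factor genes, 37.8% of 90 nuclear oxidative phosphorylation genes and 41.7% of 24 ribosome biogenesis genes. All of these lists lay above the background of all genes and within the members' interval or just under it.

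**Figure D1:**
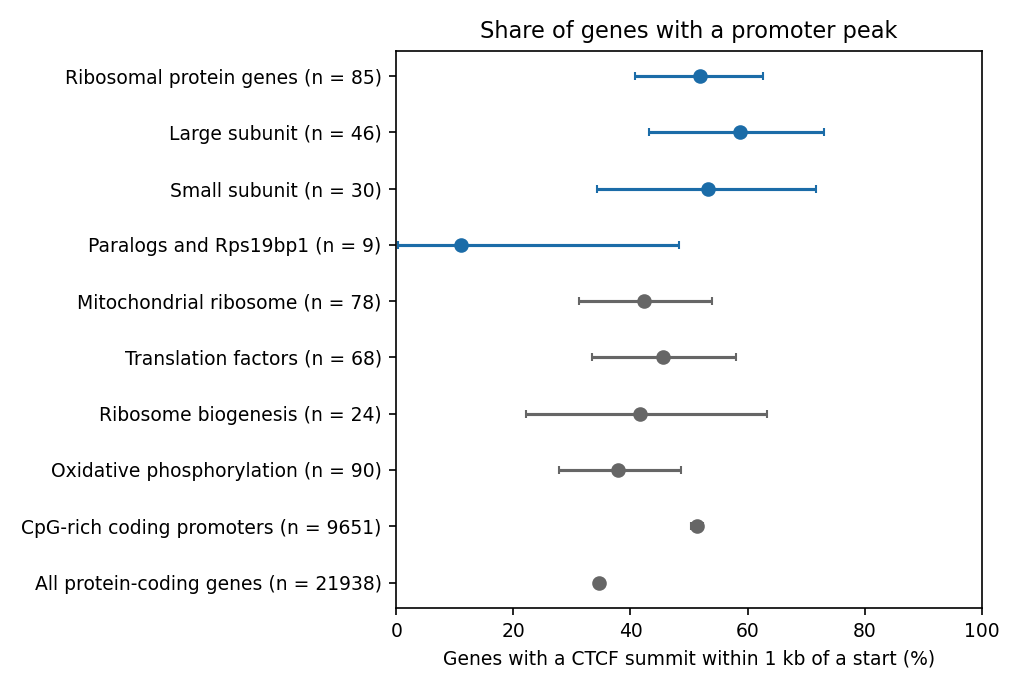
Share of genes (%) with a conservative CTCF summit within 1 kb of an annotated start, for the members and their classes (blue) and for other gene lists (grey); bars are exact 95% binomial intervals over genes. The members' 51.8% sits above all protein-coding genes at 34.6% and beside CpG-rich promoters at 51.4%.

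The promoter peaks of the members were mostly in the upper part of the list. Their signal had a median of 576 (lowest 64.1, highest 845, 44 genes; the 95% binomial interval of the median was 237 to 641). All protein-coding genes with a promoter peak had a median of 301, those with a CpG-rich promoter 286, and all 54309 peaks of the list 286. With each member's nearest summit in place of its strongest, the members' median was 372. A nearest-summit median was not taken over all genes, whose 301 rests on the strongest summit. Of the 44 members 27 (61.4%) were at or above the list median of 286, against 51.7% of all genes with a promoter peak. Mitochondrial ribosomal protein genes had a median of 302 and oxidative phosphorylation genes of 454. By number of annotated starts, the 17 members with a peak and 5 to 8 starts had a median of 221, below the 305 of all such genes. With 1, with 2 to 4 and with 9 or more starts, the members' median was above that of all genes. In the list as a whole, 22 member peaks were above the 75th percentile, 9 of them above the 90th, and 6 were below the 25th. These counts were not made over all genes with a promoter peak. The signal quartiles were 203 and 686 in the members, against 145 and 596 in all genes with a promoter peak. Few member peaks were of middle strength, with only Rps26 (496), Rpl27 (412) and Rpl10 (333) between Rpl38 at 552 and Rps9 at 269.

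**Figure D2:**
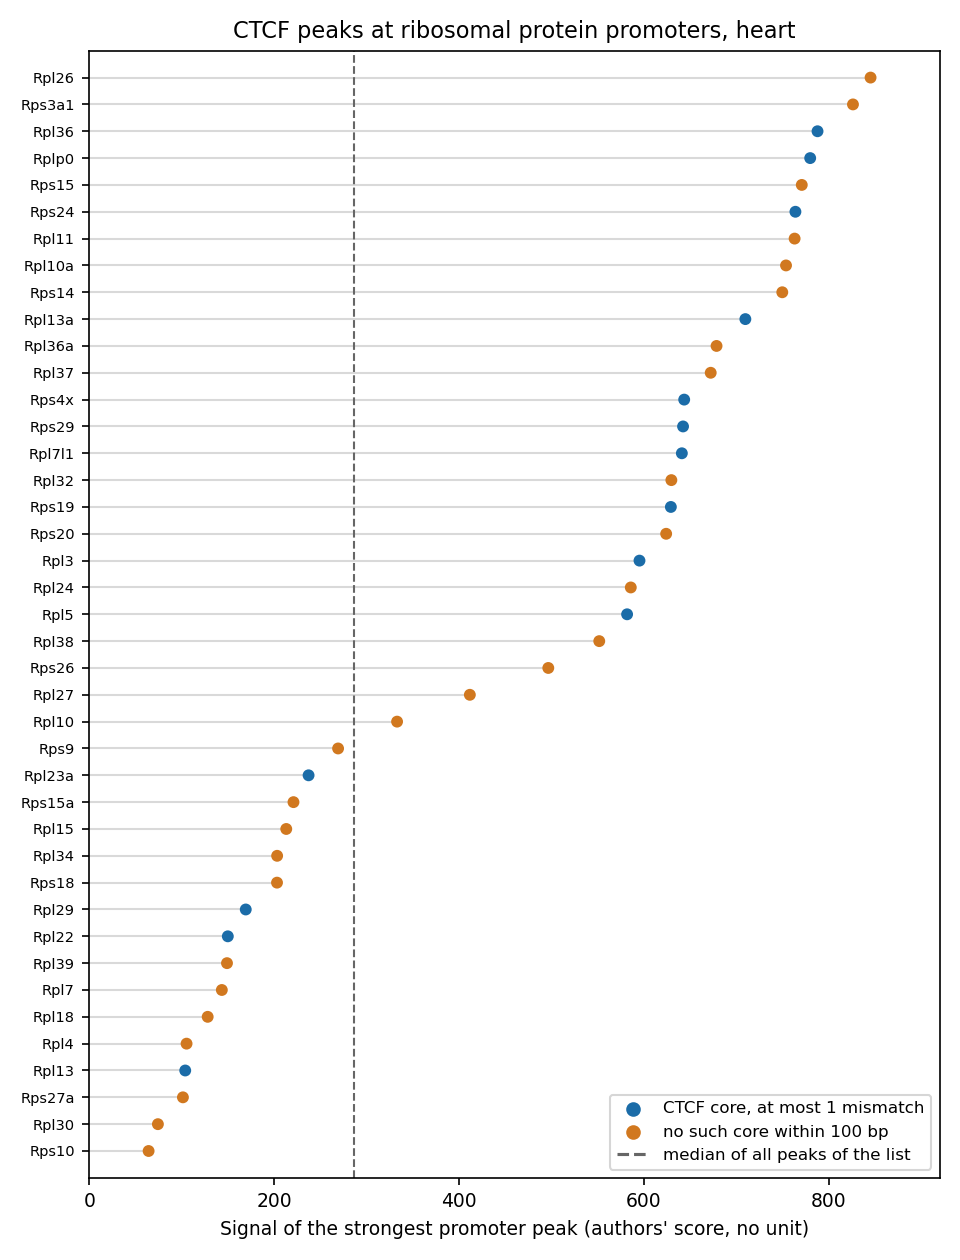
Signal (authors' score, no unit) of the strongest promoter peak of 41 of the 44 members with one, in order; blue points hold the CTCF core with at most 1 mismatch within 100 bp of the summit, orange points do not. The dashed line is the median of all peaks of the list, 286, and 25 of the members drawn lie above it, with and without a core.

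Rpl26, which encodes a large-subunit protein near the exit of the nascent peptide tunnel, had the strongest peak, with a signal of 845 at a summit 114 bp upstream of its nearest start. The ranked lists of all candidates gave 442 in pool G and 407 in pool H. Neither pool's thresholded list held this peak, although both pools had it as a strong candidate. Rps3a1, of the small subunit, followed with 826 at 49 bp upstream, and with 444 in pool G and 387 in pool H as a ranked candidate. The nearest start of any gene to that summit, 6 bp away, belonged to the annotated gene Gm37933. Rpl36 reached 788 at 96 bp upstream, with 416 in pool G as a ranked candidate and 376 in pool H. Rplp0, the scaffold of the stalk that recruits translation factors, reached 780 at 166 bp upstream, with 407 in pool G and 375 in pool H as a ranked candidate. These 4 strongest member peaks were each missing from at least 1 of the thresholded pool lists, and all were in both ranked pool lists. Rpl26, Rps3a1 and Rpl36 were also missing from the second thresholded list of both pools, while Rplp0 was in it.

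Rps15, at the head of the small subunit, had a signal of 771 at 116 bp upstream, with 427 in pool G and 346 in pool H. Rpl11, which with Rpl5 and 5S ribosomal RNA forms the particle that binds Mdm2, had 763 at 60 bp upstream, with 392 in pool G and 371 in pool H. Rpl10a, which forms the mobile stalk at the exit side of the large subunit, had 754 at 5 bp upstream, with 389 in pool G and 368 in pool H. Rps14, 1 of the genes lost in human 5q deletions with anemia, had 750 at 258 bp upstream, with 395 in pool G and 357 in pool H. In all 4 genes the summit lay upstream of the nearest start and the pool G value was the higher. Rpl13a, known also for a part in interferon-induced translational silencing, had 710 at 331 bp upstream, with 376 in pool G and 341 in pool H, and a second, weaker summit of 125 downstream of a start. Rpl36a on X, of the large subunit, had 679 at 72 bp upstream, with 367 in pool G and 314 in pool H.

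Further members were named by the fixed list. Rps19, the gene most often mutated in human Diamond-Blackfan anemia, had a signal of 629 at 384 bp upstream, with 336 in pool G and 292 in pool H. Rpl5 had 582 at 18 bp upstream, with 309 in pool G and 278 in pool H. Rps4x, the X-linked form of its small-subunit protein, had 644 at 49 bp upstream, with 341 in pool G and 307 in pool H. Rpl38, whose loss in mice alters the translation of Hox mRNAs, carried a pair of strong summits, one of 552 in intron 2, 525 bp downstream of its nearest start, and one of 516 at 93 bp upstream that holds an exact core. Rpl7l1, the 1 paralog with a peak, had 641 at 520 bp upstream over a core with 1 mismatch. Rpl7 itself, by contrast, had a weak peak of 143. Anemia genes were not all strong: Rps10, also mutated in that disease, had the weakest called member peak, and Rps7 and Rpl35a had none.

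Peaks at other than the main promoter were counted by the rule in 4 genes. Rps24, another Diamond-Blackfan anemia gene, had its peak of 764 at 9 bp from an upstream start, 3584 bp upstream of the principal one, and a start of Polr3a lay within 1 kb of the same summit. The strongest Rpl3 summit, 595, lay 605 bp downstream of a far upstream Rpl3 start and 71 bp from a start of Syngr1, the nearest one. Rpl3, whose protein lines the peptidyl transferase centre, had 2 further summits, one of 576 over an exact core and one of 160 at its main promoter, 7 bp upstream of a start. Rpl24 had its peak of 586 in intron 3, 3073 bp downstream of the principal start and 647 bp upstream of another annotated start. Rpl18 had 128 in intron 6 and a second summit of 89.1 that lay 14 bp downstream of a start. In all 4 genes the strongest summit thus lay nearer to a secondary start than to the principal one, and for Rpl3 it cannot be told apart from binding at Syngr1.

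The weakest member peaks were at Rps10 (signal 64.1), Rpl30 (74.1), Rps27a (101), Rpl13 (104), Rpl4 (105) and Rpl18 (128). Rps10, of the small subunit near the mRNA entry, had a scaled irreproducible discovery rate (IDR) of 543, where the threshold of the list is 540, and it and Rpl30 were in neither thresholded pool list. Rps10 had 34.6 in pool G and 25.8 in pool H as a ranked candidate. Rps27a, which encodes a ubiquitin fusion, was the 1 member peak with the lower value in pool G, 47.8 as a ranked candidate against 50.9 in pool H. The Rpl4 summit lay 78 bp from a start of Zwilch, a divergent neighbour, and 574 bp upstream of Rpl4. Rpl10, on X, whose protein is among the last to join the large subunit, had 333 at 20 bp upstream. Rpl22 had 150 at 444 bp downstream, and Rpl39 had 149.

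Most member peaks were found in each pool, as were most peaks of the list. Of the 44 member peaks, 36 were in both thresholded pool lists within 100 bp, 5 in 1 of them and 3 (Rpl26, Rpl30 and Rps10) in neither. Of all 54309 peaks of the list, 45425 were in both, a share near that of the members. Over the 36, the pool G value was the higher in all 36, with a median ratio of 1.15 (1.01 to 1.57). Over all 45425 peaks of the list that were in both pool lists the median ratio was 1.22, with a central 95% range of 0.984 to 1.78, and 0 members lay outside it. The ranked pool lists held all 44 summits, with the higher value in pool G for 43. With 2 pools, and a signal that can move with read depth, no difference between pools was tested.

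**Figure D3:**
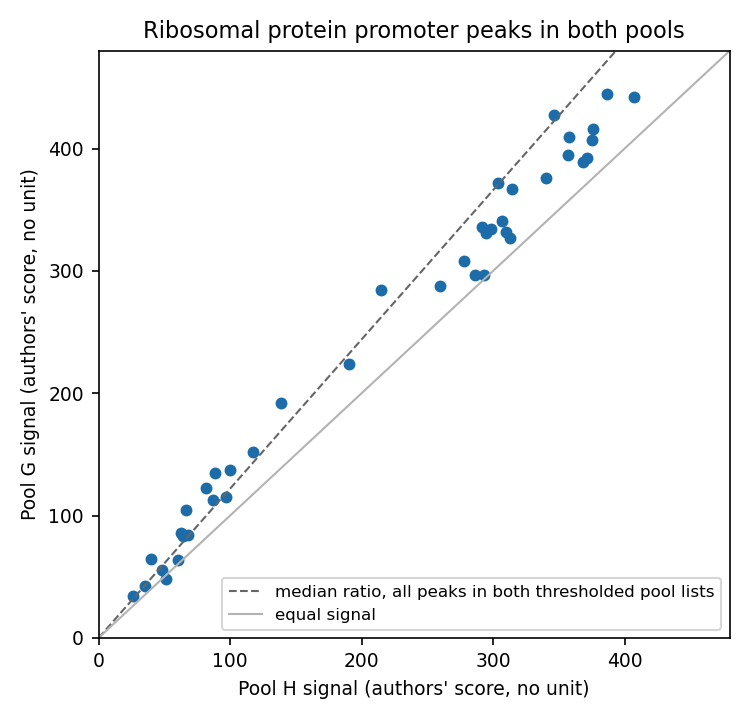
Signal (authors' score, no unit) of 41 of the 44 member promoter peaks in the ranked list of pool G against that of pool H; each point is a gene. The stronger members lie mostly between the line of equal signal and the dashed line, which is the median ratio of all peaks, 1.22, and 1 point, Rps27a, lies below the line of equal signal.

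Member summits lay mostly upstream of the start. Relative to the nearest annotated start 35 of 44 (79.5%) were upstream, against 60.1% of all protein-coding genes with a promoter peak, and 9 were downstream. The median signed distance was -95.5 bp, where negative is upstream, and the median distance without sign was 162 bp, against 193 bp for all genes. Within 100 bp of a start lay 17 (38.6%), against 33.4%. Of the summits, 27 were upstream of every annotated start of their gene. By the principal transcript, 31 summits were upstream, 10 in an intron and 3 in an exon. For all genes, the share upstream of the principal start is given below by peak strength. The count upstream of every start and those in introns and exons were not made over all genes. The upstream share was 82.4% for oxidative phosphorylation genes and 72.7% for mitochondrial ribosomal protein genes, so it was not highest in the members.

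The upstream position went with the strong peaks. Of the 27 member peaks at or above the list median, 25 (92.6%) were upstream of the principal start, against 52.1% of all genes with a peak that strong. Only Rpl24 and Rpl38 were downstream, and Rps24 and Rpl3 counted as upstream from over 1 kb away. Of the 17 weaker member peaks 6 (35.3%) were upstream of the principal start, against 45.0% of all genes with a weaker peak, and the other 11 lay inside the gene. Among those 11 were Rps9, Rpl23a, Rpl34, Rpl22, Rpl39, Rpl7 and Rps27a in the first intron. Measured from the nearest start of any transcript, the difference was smaller, with 24 of 27 strong peaks (88.9%, all genes 65.0%) and 11 of 17 weak peaks (64.7%, all genes 54.9%) upstream. By that measure the weak member peaks lay above all genes, and by the principal start below them. Signal and position come from the same peaks and were compared as a description, without a test.

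**Figure D4:**
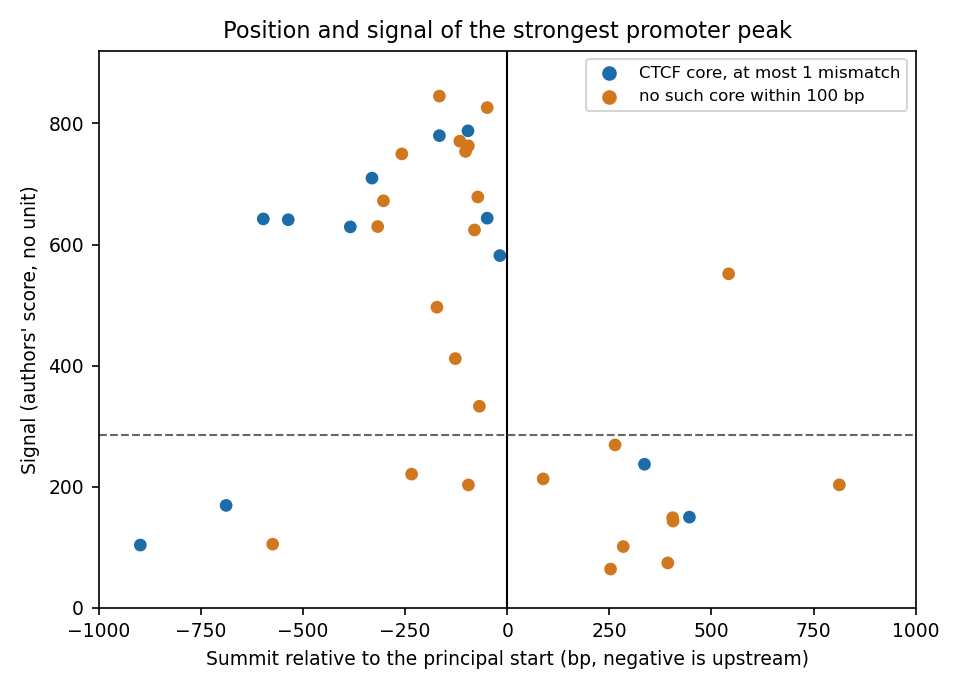
Signal (authors' score, no unit) against the position of the summit relative to the principal start (bp, negative is upstream) for the strongest promoter peaks of 41 of the 44 members; of these Rps24, Rpl3, Rpl24 and Rpl18, whose summits lie over 1 kb from that start, are outside the axis. Above the dashed list median of 286 all but 1 of the points drawn (Rpl38) are upstream, and below it most are downstream.

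The CTCF core was about as common in the members' peaks as in promoter peaks of all genes. With at most 1 mismatch, within 100 bp of the summit and on either strand, it was found in 16 of 44 member peaks (36.4%, exact 95% binomial interval 22.4 to 52.2%), against 39.6% of all protein-coding genes with a promoter peak. Among CpG-rich promoters the order was reversed, with 14 of 33 members (42.4%, 25.5 to 60.8%) and 36.0% of all such genes. Over all peaks of the list, most of them away from promoters, the share was 66.0%, and in windows 1 kb from the summits it was 5.55%. The best match had no mismatch in 5 members (Rplp0, Rps4x and Rpl13 among them), 1 in 11, 2 in 14 and 3 in 14. The exact core was thus in 11.4% of member peaks, against 14.1% for all genes, and a core with up to 2 mismatches in 68.2%, against 79.4%. Where the core was present, the median gap between its centre and the summit was 6 bp, and the widest was 33.5 bp. It stood on the strand of the gene in 9 members and on the opposite strand in 7, a count not made over all genes.

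Strong member peaks were found with and without a near-exact core. Peaks with a core had a median signal of 612 (104 to 788, 16 genes) and those without 454 (64.1 to 845, 28 genes), ranges that overlap almost fully. For all protein-coding genes the medians were 487 and 220. Among the 27 stronger member peaks 11 (40.7%) had the core, against 52.8% of all genes with a peak that strong, and among the 17 weaker ones 5 (29.4%), against 25.6%. Of the 12 strongest, Rpl36, Rplp0, Rps24 and Rpl13a held it and the other 8 did not. The best matches of Rpl26, Rps3a1, Rpl11 and Rpl10a, printed above, have 2 mismatches, and their centres lie at most 11.5 bp from the summit. Whether these bases, a longer motif or another factor bound there recruits CTCF was not tested.

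The word at the Rpl13 peak is common in the genome-wide list. It was the exact core of 6754 of the 17932 peaks with one, and 99.7% of its copies were soft-masked. Peaks over it had a median signal of 163, against 539 over all other exact cores. Rpl13 (104 at 898 bp upstream) and Rpl29 (169 at 688 bp upstream) lay in the same low range and far from their starts. No peak over this word was among the 27 stronger member peaks. Of those 27, 2 (7.41%) had a soft-masked summit, against 6.02% of all genes with a peak that strong. Among the 17 weaker member peaks there were 4 (23.5%), against 10.4% of all genes with a weaker peak. Of the other named members with a core, only Rpl22 (150) and Rpl23a (237) lay below the list median.

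Promoter letters that the rule did not use were counted next, and most members lacked each motif but the GC box. In the 300-base principal promoters, the ETS family motif CCGGAAG was found in 30.6% of members, 11.2% of all genes, 19.9% of CpG-rich promoters and 37.2% of mitochondrial ribosomal protein genes, on either strand. The YY1 family motif AAGATGGC was found in 5.88% of members, 3.09% of all genes, 5.09% of CpG-rich promoters and 14.1% of mitochondrial ribosomal protein genes. The GC box GGGCGG was found in 50.6% of members and 45.5% of all genes, below the 76.9% of CpG-rich promoters. CTTT within 6 bases of the start on the gene strand, part of a pyrimidine start, was found in 15 members (17.6%), 4.02% of all genes and 3.08% of CpG-rich ones. The motifs are not independent of the 12-base CTCF core: CCGGAAG can form the first letters of a core with 1 mismatch, AAGATGGC the last letters of an exact one, and GGGCGG can share its end. A match is a description of the letters, not a bound site.

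Members with and without a peak differed little in these features. CCGGAAG was in 14 of 44 members with a peak and 12 of 41 without, CTTT in 9 and 6, and GGGCGG in 20 and 23. AAGATGGC was in 4 members with a peak and 1 without. The median GC content was 55.7% with a peak and 56.0% without, and the median CpG ratio 0.817 and 0.856. The CTCF core itself was in 8 of the 85 principal promoters (9.41%), against 8.95% of all protein-coding ones. RefSeq promoter sequences were matched by symbol for 65 members, and for 45 of these the RefSeq start lay within 50 bases of the principal start used here.

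Some of the peaks lay near starts of other genes. The nearest start of any gene belonged to the member in 38 of 44 and to another gene in 6, namely Rps3a1, Rps29, Rpl3, Rpl23a, Rps18 and Rpl4. The nearest start was that of a protein-coding gene for Rpl3, Rps18 and Rpl4, and of a noncoding gene for Rps3a1, Rps29 and Rpl23a. A start of another protein-coding gene lay within 1 kb of the summit in 8, Rpl3, Rps18 and Rpl4 again among them. For Rps10 it was a start of RPS10-NUDT3. Neither count was made over all genes with a promoter peak, so no background stands beside them. A divergent protein-coding neighbour within 1 kb was annotated for 9 members, of which 3 (33.3%) had a peak, against 48.1% of the 1532 protein-coding genes with such a neighbour, and the 3 were Rpl15 beside Nkiras1, Rps18 beside Vps52 and Rpl4 beside Zwilch. All 3 were below the list median, at 213, 203 and 105. Many ribosomal protein genes host small nucleolar RNAs in their introns. Of the 29 members annotated as hosts 15 (51.7%) had a peak, against 41.7% of all 259 protein-coding hosts. The hosts' share was level with the 51.8% of all members.

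Most of the 41 members without a conservative peak had at best weak candidates. A summit of the second list of both pools was at 46 members in all (54.1%, against 38.9% of all genes), of pool G at 42 (49.4%, against 34.4%) and of pool H at 40 (47.1%, against 32.8%). In all 4 lists 36 members had a peak, and 34 had one in no list. Of the 41, 7 had one in the second list, namely Rpl27a, Rps27l, Rps12, Rpl36al, Rps6, Rps2 and Rpl17. Conversely, Rpl26, Rps3a1, Rpl36, Rpl30 and Rps10 had a conservative peak but none in the second list. None of these counts across lists was made over all genes. For all genes too, the second list gave a higher share than the conservative list, 38.9% against 34.6%. In the ranked list of all candidates 37 of the 41 (90.2%) had at least 1 candidate within 1 kb of a start, against 44.3% of all protein-coding genes without a peak and 82.9% of the CpG-rich ones. The strongest had a median signal of 33.6 (10.9 to 92.9) over 36 of these genes, a range that does not cover the candidate of 1 gene not reported here. Rpl10l, Rpl39l, Rps27rt and Rps28 had none. The nearest conservative summit to their principal starts lay at a median of 5874 bp (1224 to 568953 bp).

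The IDR, the authors' measure of how badly the ranks of a candidate fit between replicates, decides which candidates are called. Among the called members, the IDR did not simply fall with the signal. Of the 5 strongest, Rpl26 had 0.00598, Rps3a1 0.0108 and Rps15 0.00379, while Rpl36 had 0.000252 and Rplp0 0.000289. The only higher values among called members were those of the weak peaks at Rps27a (0.0145), Rpl30 (0.0200) and Rps10 (0.0492). The cause was not tested. Of the 14358 protein-coding genes without a conservative promoter peak, 84 had a candidate at or above 723, the 90th percentile of the conservative list. Among the 36 members without a peak whose candidates are reported, the strongest were those of Rpl27a (92.9), Rps27l (85.1), Rps12 (79.5), Rpl36al (75.6), Rps6 (69.3), Rps2 (60.2) and Rplp2 (58.8). Rplp2, with Rplp1 one of the acidic proteins of the stalk that Rplp0 carries, came closest to the threshold at an IDR of 0.0677. Rplp1 had a candidate of 25.6, so of the stalk genes only Rplp0 had a called peak. Rps6, the target of the S6 kinases, had candidates of 31.7 in pool G and 37.1 in pool H. Rps3 at the mRNA entry had 41.1, Rpl3l 30.1, Rpl22l1 30.2 and Rps27 17.5.

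**Figure D5:**
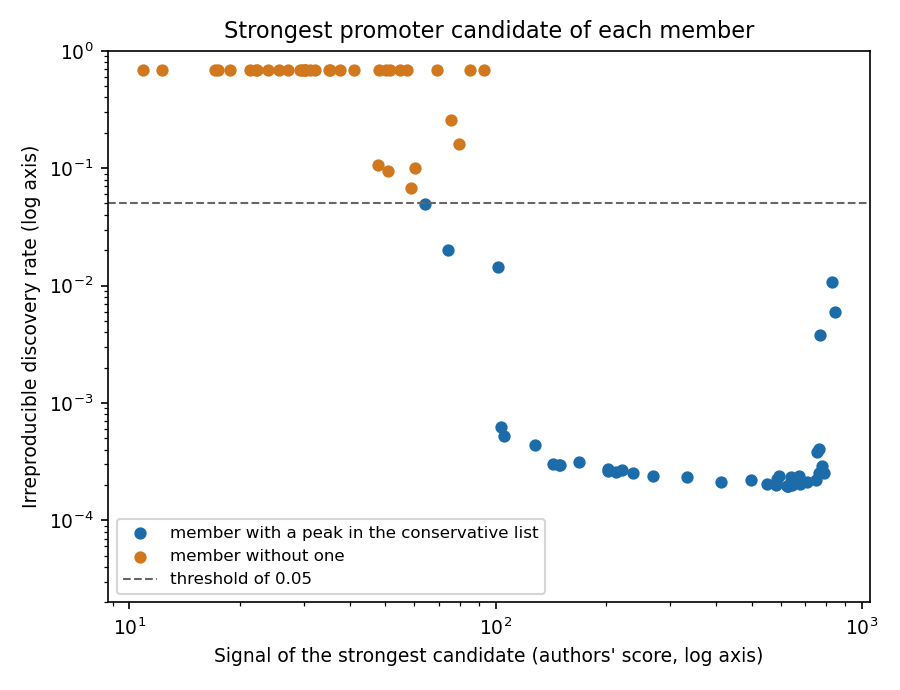
Irreproducible discovery rate (log axis) against signal (authors' score, log axis) of the strongest promoter candidate of 77 members in the ranked list matched between pools; blue members have a conservative peak, orange ones do not, and 4 members without a candidate are not drawn. The dashed line is the threshold of 0.05, and the orange points drawn reach a signal of 92.9, with 1 candidate left out.

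Ribosome biogenesis genes, which make and modify the ribosomal RNA that these proteins bind, had peaks in both strength ranges. Nob1, the endonuclease that finishes the small-subunit RNA, had a signal of 828, Rrp9 797, Ubtf, a factor of RNA polymerase I, 790, Nop10 718 and Fbl, the methyltransferase fibrillarin, 705. Nop56 had 401, Gnl3 156, Polr1a 112, Polr1b 89.1 and Wdr12 72.2. Ncl and Npm1, abundant proteins of the nucleolus, had no promoter peak. The 10 peaks of the 24 genes had a median of 553, and 7 of them held the core.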

How the data were processed

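CTCF ChIP-seq peak lists of mouse heart, pools G and H, were analysed. The readme texts that accompany the samples say that the authors made ranked and thresholded lists for each pool and for the pools together, not for single technical libraries, and the labels give mm10 as the build. Aligner and caller: not given in the sources used here. The control alignment was not analysed here. The signal and the scaled IDR were deposited by the authors as a score, and the ranked lists hold the −log10 of the IDR, as deposited. A scaled IDR of 540 stands for 0.05 and 830 for 0.01.

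Summits were assigned to starts of GENCODE M21 within 1 kb. The principal start was that of the transcript with the best APPRIS level, then transcript support level, CAGE tag and length. Sequences came from GRCm38.p6. Scripts ran under Python 3.11.15 with pysam 0.24.0, scipy 1.17.1, pandas 2.3.3, numpy 2.4.6 and matplotlib 3.10.9, and the search for summits and cores was tested on simulated data. No test was made: 2 pools of 1 group allow none, and the shares stand beside the same shares over all genes. The pools are biological replicates per the labels.

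The members and lists were chosen with earlier results of these data known. Named genes were the 12 strongest and 6 weakest members, those with an exact core, the 8 strongest candidates without a peak (7 reported), and a fixed list of stalk, paralog and disease genes. Other genes named in passing were chosen after their values were seen. Some items, a few members among them, are not reported here, and they are left out of the figures by gene but not of the counts.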

Additional observations from a re-analysis of the deposited data

How the results depend on the processing

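The share of members with a promoter peak rose to 75.3% (all genes 53.8%) when the summit could lie within 5 kb of a start. It fell to 32.9% (all genes 18.3%, CpG-rich genes 26.4%) when ranked candidates at or above the list median were counted. The 32.9% is over all 85 members, and the share of the CpG-rich members alone was not taken at that setting. This alternative was chosen after seeing the data, as was the count of conservative peaks over CpG-rich members. The other 10 settings gave 42.4 to 56.6%, including 42.4% within 500 bp (all genes 28.1%) and 47.1% at an IDR of 0.01 (all genes 33.0%). The share with a core was 11.4% without a mismatch and 68.2% with at most 2, and it stayed near 36.4% in the other 9 settings. The median signal was 372 when each member's nearest summit replaced its strongest, at percentile 58.1 of the list in place of 74.8. The thresholded pool lists have their own scales, on which the medians were 289 in pool G (percentile 72.8) and 269 in pool H (percentile 74.9), and the second list of both pools gave 372 (percentile 65.1). The share within 100 bp of a start ran from 26.8 to 47.7% over its 8 settings. No paired analysis was possible because there is 1 group and its pools have no counterpart in another. Depth and input could not be examined, so a missing peak does not show an absence of CTCF. It means that no candidate near a start passed the authors' threshold, or that none was listed there.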
